A study of Canis lupus familiaris with 4 samples.

Results

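Clusters of TWIST1-enriched regions, places where 2 or more regions found by ChIP-seq lie close together on a chromosome, were examined in MDCK cells, an epithelial line from dog kidney. A region was a stretch of the genome where peaks of both replicates, each with q ≤ 0.05, overlapped by at least 1 bp, and regions starting in the first 250 kb of a chromosome were left out. A region was clustered when its midpoint lay within 10 kb of the midpoint of another region, and isolated otherwise. By this rule 271 of 2711 regions (10.0%) were clustered and 2440 were isolated. The members were chosen by the q values and positions of their peaks, so their number, their nearness and their having passed the q threshold are a description and not a result.

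All cells carried human TWIST1, expressed constitutively and kept under puromycin selection, and are described as mesenchymal in phenotype. The 2 ChIP libraries, replicates 1 and 2, came from independent experiments with the same monoclonal antibody, whose lot is recorded for replicate 2 alone. The 2 input libraries, chromatin of the same cells without immunoprecipitation, entered through the background of the peak calls. The labels do not say which input served which peak list, and whether the local backgrounds of the replicates are independent of each other was not tested. Parental MDCK cells, which lack the transgene, were not analysed here, so enrichment is relative to input and describes human TWIST1 overexpressed in a dog line.

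TWIST1 belongs to the basic helix-loop-helix transcription factors, can turn epithelial cells mesenchymal, and shapes the mesoderm of the head. It binds DNA as a dimer, with itself or with E proteins, at short sequences called E-boxes. Enhancers of developmental genes often hold several binding sites for such factors, and neighbouring enhancers can serve the same gene. The genes beside the regions and the DNA sequences of the regions were not analysed here, since the dog gene table at hand is of another genome build than the peaks.

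Each region is described by the peak statistics the authors deposited on the build CanFam3.1. Fold enrichment is the number of overlapping fragments at the summit of the peak (the pileup) over the local background expected from the input, after 1 is added to each. The −log10 p is that of the peak caller's Poisson test at the same point. The lists held 73701 peaks in replicate 1 and 60370 in replicate 2, of which 34.0% and 33.7% had q ≤ 0.05. The lowest background of each list, 2.03 fragments in replicate 1 and 4.33 in replicate 2, is the unit in which raised background is given below. At all 2711 regions the median pileup was 20 fragments in replicate 1 and 24 in replicate 2. Ranges in parentheses after a fold are exact Poisson 95% intervals, computed from the pileup with the background held constant, so they hold counting error alone.

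Most clusters were pairs. Chains of regions with neighbouring midpoints within 10 kb formed 127 clusters, of which 120 held 2 regions, 4 held 3, 2 held 4 and 1 held 11. The clusters spanned a median of 4706 bp from the start of the first region to the end of the last, with a range of 792 to 14983 bp, and covered 645 kb together. Clusters lay on 37 of the 39 chromosomes with peaks. Chromosome 5 and chromosome 6 held 8 each, chromosomes 7 and 10 held 7 each, and chromosomes 33 and 38 held none. On the X chromosome 2 of 45 regions were clustered, in 1 pair. The share of regions that were clustered was highest at 21.6% on chromosomes 37 (8 of 37) and 7 (24 of 111, of which 11 lay over raised input as described below), followed by 20.99% on chromosome 6 (17 of 81). Among chromosomes with a cluster it was lowest at 2.67% on chromosome 13 (2 of 75) and 2.99% on chromosome 21 (2 of 67).

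The cluster of 11 regions and 2 others lay over piled-up input at chromosome ends, and the other 124 clusters did not. A local background of at least 5 times the lowest of its list, in either replicate, was called raised. It was raised at 17 of the 271 clustered regions (6.27%; exact binomial 95% interval 3.70 to 9.85) and at 18 of the 2440 isolated regions (0.738%; 0.438 to 1.16), against 1.29% of all regions. These intervals treat regions as independent, although the 17 lie in 3 clusters. By cluster it was 3 of 127 (2.36%; 0.49 to 6.75). All 17 clustered regions were within 250 kb of the last listed peak of their chromosome, a zone that the rule did not drop and that held 1.22% of all regions. No clustered region without raised background lay in that zone. The clusters over raised background lay on chromosome 7 (11 regions), chromosome 32 (4 regions) and chromosome 22 (2 regions). They ended 10826, 1099 and 15163 bp before the last listed peak. The 17 regions had a median fold enrichment of 1.60 in replicate 1 and 1.44 in replicate 2, with median backgrounds 64.1 and 43.1 times the lowest. The part of the input in these peaks was not tested, and the main results below are given with and without them.

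Neighbouring regions were spread over the whole range up to 10 kb, with more of them at short distances. The 144 consecutive pairs within clusters had a median midpoint distance of 3597 bp (quartiles 1430 and 6278 bp). Without pairs that touch raised background the median was 4077 bp over 130 pairs (quartiles 1879 and 6635 bp). Midpoints were within 1 kb in 21 pairs, of which 19 remained without raised background, and within 5 kb in 89 and 77. The highest count in any 1 kb class was 24, at 1 to 2 kb, and it fell to 14 without raised background, below the 19 under 1 kb and the 17 at 2 to 3 kb. Between 10 and 20 kb there were 83 pairs, so the distance of 10 kb does not mark a break in the spacing.

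**Figure D1:**
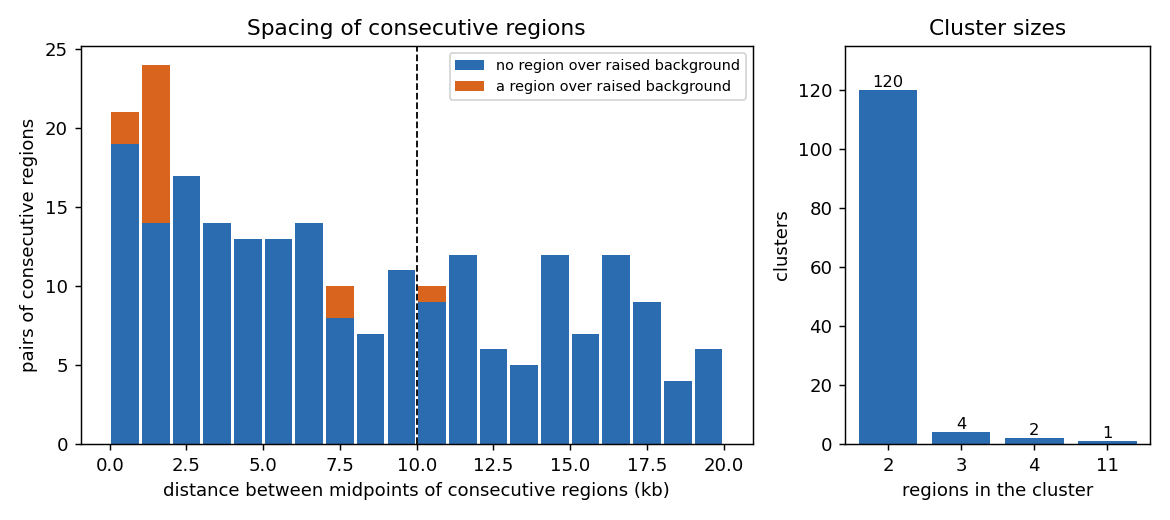
Left, the number of pairs of consecutive regions by the distance between their midpoints in kb, in classes of 1 kb, with pairs that touch raised input background in orange and the 10 kb limit of a cluster as a dashed line. Right, the number of clusters by the number of regions they hold. Counts are highest below 3 kb, the orange pairs lie mostly at 1 to 2 kb, and 120 of 127 clusters are pairs.

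Each replicate gave its own measure of the spacing. A region needs overlapping peaks of both lists, so its summits had to lie close together and the values of this paragraph are a description. The distance between the summits of neighbours in replicate 1 and that in replicate 2 differed by a median of 71.5 bp over the 144 pairs (68.5 bp over the 130 without raised background), and by at most 100 bp in 94 of them. For pairs more than 10 kb apart the median difference was 59 bp. At the clustered regions themselves, the median offset between a replicate 1 summit and its replicate 2 summit was 44 bp, and 39.5 bp at isolated regions. They were within 50 bp at 56.5% (50.3 to 62.4) of clustered and 59.6% (57.6 to 61.5) of isolated regions, and at 57.5% (51.1 to 63.6) and 59.6% (57.6 to 61.5) without raised background.

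The pairs at the edge of the rule show what it separates. The widest clustered pair had midpoints 9909 bp apart, on chromosome 6 at 62415998 to 62416499 and 62425904 to 62426410. Its first region was enriched 3.74-fold in replicate 1 and 3.61-fold in replicate 2, and its second 4.72-fold and 6.56-fold. The closest pair outside the rule was 10056 bp apart, on chromosome 13 at 62313808 to 62314134 and 62323832 to 62324221. Its regions were enriched 5.75-fold and 8.37-fold in replicate 1 and 3.30-fold and 8.93-fold in replicate 2.

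The closest pairs had midpoints 473.5 to 481 bp apart, with a short gap between peaks. On chromosome 14 the closest of all, the regions at 16595417 to 16595745 and 16595901 to 16596208, were separated by a gap of 155 bp. The first was enriched 4.19-fold in replicate 1 (2.72 to 6.21) and 2.70-fold in replicate 2 (1.77 to 3.96). The second was enriched 3.78-fold (2.35 to 5.80) and 5.25-fold (3.88 to 6.94). By the test described below these neighbours differed in replicate 2 and not in replicate 1 (exact binomial test, adjusted p = 0.0425 and 0.968). The third closest pair, on chromosome 17 at 35292700 to 35293079 and 35293187 to 35293554, was 481 bp apart with a gap of 107 bp. In replicate 1 its regions had folds of 6.73 (4.55 to 9.62) and 4.35 (2.96 to 6.18), and in replicate 2 of 3.96 (2.82 to 5.42) and 2.82 (1.92 to 4.01). The intervals of these neighbours overlapped in both replicates. The second closest pair belongs to the cluster on chromosome 19 described below.

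Clustered regions were about as strongly enriched as isolated ones. In replicate 1 the fold enrichment of the 271 clustered regions had a median of 5.36 (quartiles 4.04 and 6.97), against 5.07 (3.90 and 7.14) for the 2440 isolated regions. In replicate 2 the medians were 3.58 (3.13 and 4.72) and 3.65 (3.09 and 4.72). The log2 ratio of the medians, clustered over isolated, was 0.08 in replicate 1 and −0.03 in replicate 2, a mean of 0.03 ± 0.08 (SD, n = 2 replicates). Without regions over raised background it was 0.12 in replicate 1 and 0.01 in replicate 2, with medians of 5.54 against 5.09 and 3.69 against 3.66. The replicates did not share a direction over all regions, and the mean was smaller than the spread between them. No test was made, because all regions had passed a threshold on the same statistics.

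The −log10 p differed more in replicate 1 than in replicate 2. Its median was 11.8 for clustered and 10.4 for isolated regions in replicate 1, and 8.50 and 8.32 in replicate 2. The difference of the medians averaged 0.754 ± 0.815 (SD, n = 2 replicates). Without raised background the medians were 11.9 against 10.4 and 8.78 against 8.32, an average difference of 0.95 ± 0.69 (SD, n = 2 replicates). In replicate 1 the difference lay in the lower part of the range. The lower quartile was 8.37 for clustered and 6.67 for isolated regions, while the upper quartile was 16.9 for clustered and 17.9 for isolated regions. With a stricter threshold of −log10 q of at least 2 in both lists, the mean difference was −0.609, so its direction depended on the threshold.

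**Figure D2:**
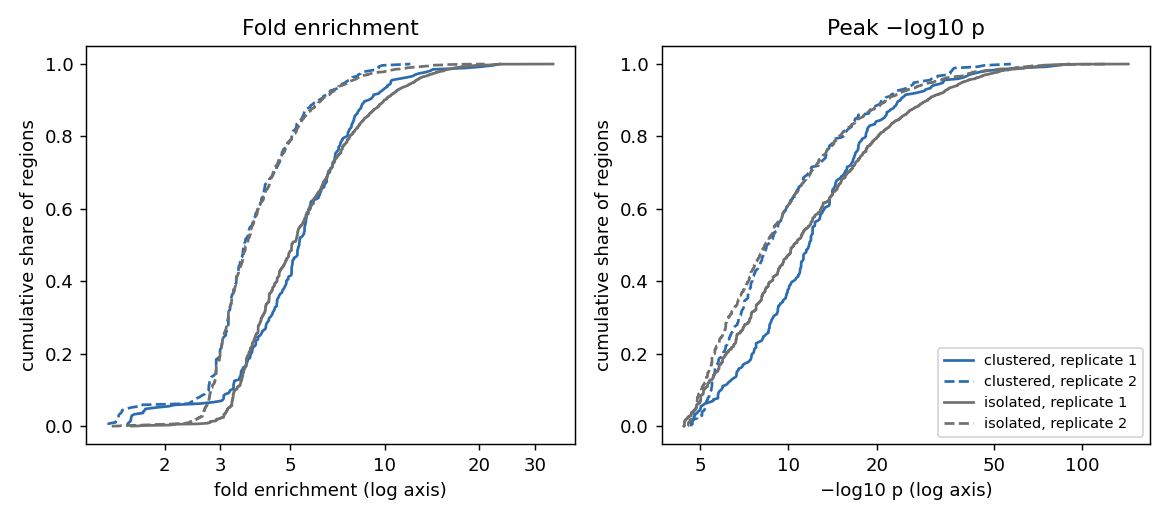
Cumulative share of regions by fold enrichment (left) and by −log10 p (right), both on log axes, for the 271 clustered regions in blue and the 2440 isolated regions in grey, with replicate 1 as solid and replicate 2 as dashed lines. The blue and grey lines of a replicate run close together, apart from the step of clustered regions below 2-fold and, in replicate 1, the lower −log10 p values.

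The share of regions of at least 5-fold was near that of all regions. At 10-fold the share was lower, with 1 of the 47 such regions clustered. Both replicates reached 5-fold at 50 of 271 clustered regions (18.5%; 14.0 to 23.6) and 445 of 2440 isolated regions (18.2%; 16.7 to 19.8), against 18.3% of all regions. Both reached 10-fold at 1 clustered region (0.369%; 0.00934 to 2.04) and at 46 isolated regions (1.89%; 1.38 to 2.51), against 1.73% of all regions. Without raised background the shares were 19.7% (14.98 to 25.1) and 18.4% (16.8 to 19.97) at 5-fold and 0.394% (0.00997 to 2.17) and 1.90% (1.39 to 2.53) at 10-fold. The intervals of these shares overlap, and they treat regions as independent, although neighbours share a locus. Within the 120 pairs, 80 had no region of at least 5-fold in both replicates, 33 had 1 and 7 had 2.

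Median folds differed little with the distance to the nearest other region, and were highest in both replicates where it lay under 1 kb away. Without raised background, the 38 regions with a neighbour under 1 kb away had median folds of 6.31 in replicate 1 and 4.04 in replicate 2. The 114 regions with a neighbour at 1 to 5 kb had medians of 5.38 and 3.69, and the 102 at 5 to 10 kb had 5.45 and 3.63. The 471 regions with the nearest other region at 10 to 50 kb had medians of 5.31 and 3.75, and the 739 at 50 to 200 kb had 5.28 and 3.69. The 1212 regions with no neighbour within 200 kb had medians of 4.96 and 3.57. The quartiles of the closest class, 4.60 and 8.03 in replicate 1, overlapped those of the class at 10 to 50 kb, 4.15 and 7.75, and of the most distant class, 3.84 and 6.98.

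Replicate 1 gave the higher fold at 239 of the 271 clustered regions (88.2%; 83.7 to 91.8) and at 83.9% (82.4 to 85.3) of isolated regions. Spearman's rho between the replicates' folds was 0.51 across clustered and 0.52 across isolated regions. Without raised background it was 0.41 across 254 clustered regions and 0.51 across 2422 isolated ones. For −log10 p it was 0.48 and 0.59 with all regions included. These values are across regions of 1 pair of libraries and describe those libraries. Regions were of like width, with medians of 392 bp for clustered and 384 bp for isolated regions, and the widest clustered region, at 2267 bp, lay in the cluster of 11.

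In the cluster with the strongest second region, both regions were enriched over 8-fold in both replicates. It lies on chromosome 6, and clusters here are ranked by the lower of the replicates' folds at the second strongest region. The first region, at 76986066 to 76986539, held 59 fragments at its summit in replicate 1, an enrichment of 17.98-fold (13.8 to 23.1), and 50 in replicate 2, an enrichment of 9.57-fold (7.15 to 12.5). The second, at 76986670 to 76987494, held 46 and 54 fragments, with folds of 13.98 (10.3 to 18.6) and 8.45 (6.38 to 10.97). Their midpoints were 780 bp apart, with a gap of 130 bp between the regions. The neighbours' pileups did not differ by the test described below (exact binomial test, adjusted p = 0.406 in replicate 1 and 0.773 in replicate 2).

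Of the other strong clusters, those on chromosomes 2 and 9 were wider. On chromosome 2 the regions at 71483905 to 71484361 and 71492854 to 71493438 were 9013 bp apart and were enriched 7.64-fold and 11.1-fold in replicate 1, and 6.18-fold and 7.47-fold in replicate 2. On chromosome 9 the regions at 55261063 to 55261686 and 55263511 to 55264102 were 2432 bp apart. Their folds were 5.65 and 6.83 in replicate 1 and 5.55 and 7.83 in replicate 2. In each of these 2 pairs the second region was the higher one in both replicates, and the intervals of the neighbours overlapped.

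A cluster of 3 on chromosome 29 joined a strong region to 2 weaker ones. The region at 37205016 to 37205506 was enriched 20.2-fold in replicate 1 (16.1 to 25.2) and 8.19-fold in replicate 2 (6.25 to 10.6). Its neighbour at 37205914 to 37206260, 826 bp away, was enriched 4.56-fold (2.76 to 7.14) and 3.84-fold (2.51 to 5.64). The third region, at 37215573 to 37215927 and 9663 bp further on, was enriched 7.44-fold (4.95 to 10.8) and 5.37-fold (3.77 to 7.45). The first region was the highest in both replicates, and its interval did not overlap that of its near neighbour in either.

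The other 6 clusters of the 10 ranked highest were pairs on chromosomes 14, 4, 8 (2 pairs), 29 and 7. The folds of their regions ran from 5.05 to 12.5 in replicate 1 and from 4.58 to 8.97 in replicate 2. The midpoints were 734.5 to 4175 bp apart. The pair on chromosome 29 at 13378357 to 13378707 and 13379609 to 13380100 had the least equal regions of these, with folds of 5.05 and 12.5 in replicate 1 and 5.71 and 8.97 in replicate 2.

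The replicates differed on which region was the strongest in the cluster of 4 on chromosome 19. It lay away from raised background and spanned 5077286 to 5084290. Its regions, from first to last, were enriched 6.25-fold (4.26 to 8.89), 3.90-fold (2.42 to 5.98), 6.72-fold (4.47 to 9.73) and 3.46-fold (1.96 to 5.74) in replicate 1. In replicate 2 the folds were 2.92 (1.84 to 4.43), 5.54 (3.89 to 7.68), 3.38 (2.13 to 5.13) and 3.19 (2.05 to 4.76). The third region was the highest in replicate 1 and the second in replicate 2. These 2 neighbours did not differ by the test described below (exact binomial test, adjusted p = 0.149 in replicate 1 and 0.273 in replicate 2). The last pair of midpoints of the cluster was 480.5 bp apart.

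Of the 4 clusters of 3 regions, that on chromosome 29 was described above, and the others lay on chromosomes 6, 7 and 20. On chromosome 6, at 54584691 to 54594216, the folds ran from 4.22 to 6.94 in replicate 1 and from 3.23 to 4.88 in replicate 2, with the middle region highest in both. On chromosome 7, at 36670066 to 36684597, the last region was highest in both replicates, at 8.86-fold and 5.44-fold. On chromosome 20, at 27115821 to 27122169, the first region was highest in replicate 1 (8.03-fold; 5.35 to 11.6) and the second in replicate 2 (5.82-fold; 4.01 to 8.18).

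The cluster of 11 on chromosome 7 was uniform and weak. Its regions, between 80948724 and 80963706, had folds of 1.52 to 1.73 in replicate 1 (median 1.57) and of 1.33 to 1.51 in replicate 2 (median 1.43). Pileups were high, from 149 to 244 fragments in replicate 1 and from 200 to 290 in replicate 2. The backgrounds were 46.9 to 75.8 and 32.9 to 46.8 times the lowest of each list. Steps between midpoints were 874.5 to 1835 bp, and the intervals of neighbouring regions overlapped at every step in both replicates. The cluster of 4 on chromosome 32, from 38798693 to 38808287, had folds of 1.74 to 3.03 in replicate 1 and 1.33 to 2.42 in replicate 2, over backgrounds up to 71.7 and 47.9 times the lowest.

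**Figure D3:**
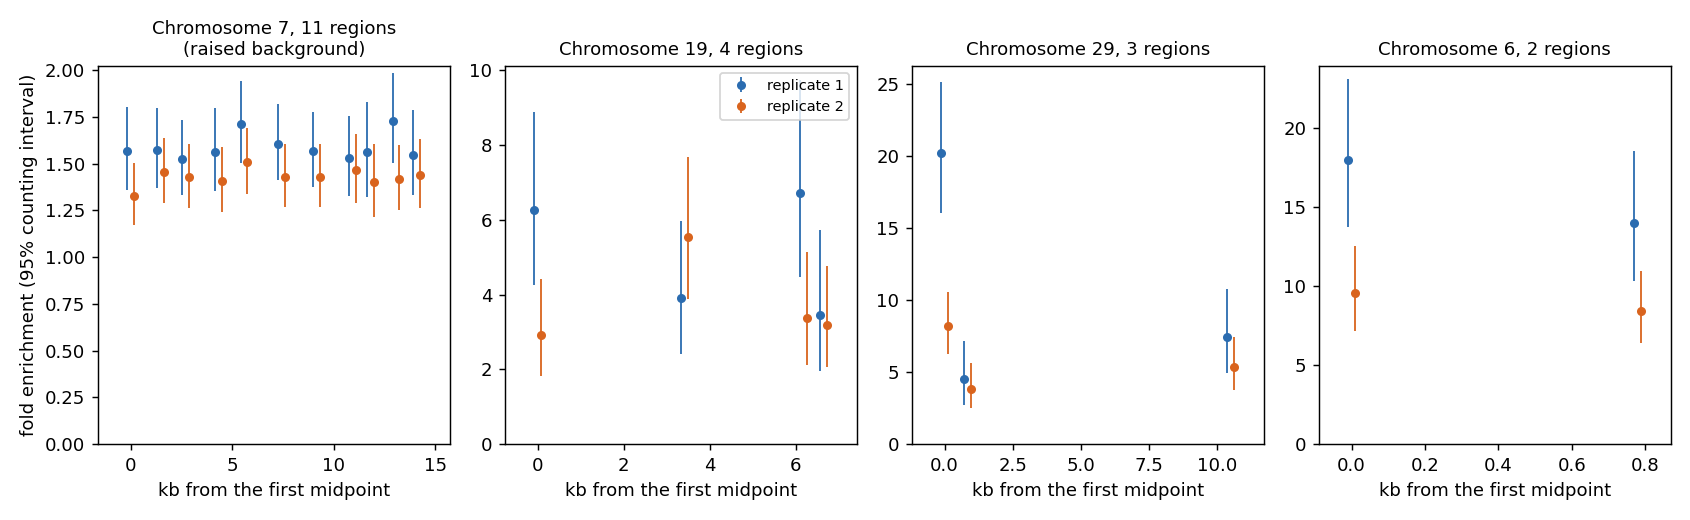
Fold enrichment of each region (vertical axis, starting at 0, with exact Poisson 95% intervals of the pileup) by its distance in kb from the first midpoint of its cluster, in replicate 1 (blue) and replicate 2 (orange), for 4 clusters; vertical scales differ. The 11 regions on chromosome 7 sit between 1.33 and 1.73, whereas the regions on chromosomes 29 and 6 reach 20.2 and 17.98 in replicate 1.

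In 8 of the 144 pairs of neighbours within clusters, the same region was called the stronger one in both replicates. For every consecutive pair of regions on a chromosome, an exact binomial test (two-sided) compared the split of the pileups with the split of the local backgrounds in each replicate, and p was adjusted by Benjamini-Hochberg over 2672 pairs. A pair was called unlike where both replicates passed an adjusted p of 0.05 in the same direction. The regions of every pair had passed the q threshold on these same peak statistics, and its effect on the calls was not tested. Of the 144 clustered pairs, 8 were unlike (5.56%), against 8.72% of all consecutive pairs. Without pairs that touch raised background it was 7 of 130 (5.38%), against 8.12%. By the test in replicate 1, whatever replicate 2 gave, 25 clustered pairs passed (17.4%), against 22.9% of all pairs, and by that in replicate 2 16 passed (11.1%), against 14.6%. A pair that was not called is not shown to be equal at these pileups. The test covers counting error of the pileups within a library. It holds the local backgrounds constant, so counting error in these is not in its p. Neither the difference between clustered and other pairs nor the part of depth in it was tested. No pair was called in opposite directions, and 17 pairs were called in replicate 1 and not in replicate 2, and 8 the other way round. Of these, 12 and 6 had the same direction in the other replicate.

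The 8 unlike pairs were named by the smaller of their log2 differences, taken as pileup over local background without the 1 added in the fold. The first was on chromosome 12, where the region at 12490423 to 12490930 stood above its neighbour at 12482879 to 12483352, 7561 bp away. The folds were 23.3 (18.5 to 28.9) against 7.60 (4.89 to 11.3) in replicate 1, and 12.1 (9.49 to 15.1) against 4.12 (2.65 to 6.15) in replicate 2. The higher one is the single clustered region of at least 10-fold in both replicates. The difference was 1.57 on the log2 scale in replicate 1 and 1.56 in replicate 2 (exact binomial test, adjusted p = 2.56e-05 and 6.46e-05), and the intervals did not overlap in either replicate.

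On chromosome 37 the first region, at 14357061 to 14357639, had folds of 22.05 (17.2 to 27.9) and 9.83 (7.59 to 12.5) in replicates 1 and 2. Its neighbour at 14358801 to 14359234, 1668 bp away, was enriched 9.06-fold (6.25 to 12.7) and 3.19-fold (2.01 to 4.85). The log2 differences were 1.39 and 1.67 (exact binomial test, adjusted p = 9.89e-05 and 4.06e-05). On chromosome 6 the region at 9089256 to 9089748 was enriched 14.2-fold and 7.88-fold in replicates 1 and 2, against 4.29-fold and 3.22-fold for its neighbour at 9090032 to 9090392, 710 bp away. Intervals of these neighbours did not overlap in either replicate.

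The other 5 unlike pairs lay on chromosomes 18, 17, 29, 5 and 32, with log2 differences that ran from 0.77 to 2.22 (replicate 1) and from 0.75 to 1.73 (replicate 2). The pair on chromosome 29 is the first pair of the cluster of 3 above. On chromosome 17 the region at 8879826 to 8880260 reached 9.13-fold and 9.46-fold in replicates 1 and 2, against 3.80-fold and 2.96-fold at 8873776 to 8874095. The pair on chromosome 32 lies over raised background. With the lowest background in place of the local one, 11 of the 144 clustered pairs were called, and the share of all pairs was not counted. The calls on chromosomes 5, 18 and 6 were then lost (larger adjusted p of the 2 replicates 0.663, 0.272 and 0.0592, exact binomial test). The direction on chromosome 32 turned (adjusted p = 3.96e-31, exact binomial test).

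**Figure D4:**
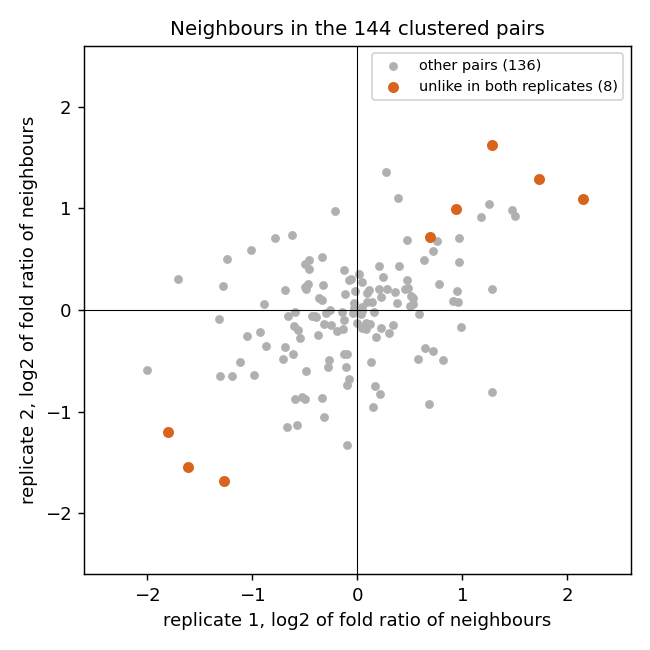
For the 144 clustered pairs, the log2 of the first over the second neighbour's fold enrichment in replicate 1 (horizontal) and replicate 2 (vertical); the 8 pairs called unlike in both replicates are orange and the other 136 grey. Orange points lie at the lower left and upper right, and 94 of 144 points have the same sign in both replicates.

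Which of 2 neighbours was the stronger was the same in both replicates in 94 of 144 clustered pairs (65.3%), against 67.4% of all consecutive pairs. Without raised background it was 85 of 130 (65.4%), against 67.0%. Over whole clusters, the same region had the highest fold in both replicates in 82 of 127 (64.6%; exact binomial 95% interval 55.6 to 72.8). By −log10 p it was the same region in 89 (70.1%; 61.3 to 77.9). Without raised background the fold gave 81 of 124 clusters (65.3%; 56.3 to 73.6).

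Most of the likeness of neighbours in strength came with the pairs over raised background, which lay in 3 clusters. Across the 144 clustered pairs, Pearson's r between the log2 folds of the neighbours was 0.52 in replicate 1 and 0.55 in replicate 2. Without raised background it was 0.06 and 0.11 across 130 pairs, and for pairs over 10 kb apart it was 0.01 and −0.01 across 2528. By distance, without raised background, r was 0.08 and 0.04 under 1 kb, −0.07 and 0.27 at 1 to 5 kb, and 0.15 and −0.02 at 5 to 10 kb. The median size of the log2 ratio of the folds was 0.49 in replicate 1 and 0.36 in replicate 2 over the 130 pairs, and 0.57 and 0.39 over the 2492 distant pairs without raised background. The points share a library and a depth, and those correlations are descriptions.

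Further peaks between the regions of a cluster had a density near that of the genome in replicate 1 and a lower one in replicate 2. Inside the spans of the 127 clusters, outside the regions, there were 19 listed peaks of replicate 1 and 9 of replicate 2, of which 13 and 3 had q ≤ 0.05. That is 0.361 and 0.171 peaks per 10 kb, against 0.305 and 0.247 over the genome. Without clusters over raised background it was 14 and 5 peaks, or 0.275 and 0.0983 per 10 kb. A peak was counted only if it lay wholly inside a span and touched no region, and gaps between neighbouring regions were 106 to 9438 bp (median 3099 bp). The counts are small, and neither these densities nor the part of short gaps in them was tested. Around the regions the replicates differed. Without raised background, at least 1 listed peak that was no part of a region lay within 10 kb of 37.0% of the 254 clustered and 34.1% of the 2422 isolated regions in replicate 1. In replicate 2 the shares were 9.84% and 19.9%. With all regions they were 40.96% and 34.1% in replicate 1 and 15.1% and 19.96% in replicate 2. The windows of clustered regions overlap one another, so 1 peak can be counted at 2 regions, and part of each window is held by the neighbour.

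Weaker neighbours shared by both replicates lay beside a small share of isolated regions. Peaks listed in both replicates that overlapped without forming a region numbered 2203 in the genome. Such a site lay within 10 kb of 68 of the 2440 isolated regions (2.79%; 2.17 to 3.52) and of 27 of the 271 clustered regions (9.96%; 6.67 to 14.2). Without raised background the shares were 2.68% (2.08 to 3.41) and 4.72% (2.46 to 8.11). Beyond their own cluster, 41.7% (35.6 to 48.1) of the clustered regions without raised background had another region within 100 kb, against 33.6% (31.7 to 35.5) of the isolated ones. With raised background included the shares were 39.1% (33.3 to 45.2) and 33.5% (31.7 to 35.4), whose intervals overlap. The rule chose clustered regions by the nearness of other regions, so the shares within 100 kb are a description and were not tested. The median distance from an isolated region to the nearest other region was 202 kb (quartiles 69.5 and 530.02 kb). Regions of a cluster enter these shares together, so their intervals are narrower than clusters as units would give.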

How the data were processed

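ChIP-seq with an antibody against TWIST1 and input chromatin were sequenced in 2 experiments. Cells were crosslinked in 1% formaldehyde for 10 min, per the labels' protocols. Bowtie2, Picard, MACS2 and the build CanFam3.1 were used, per the submitters' processing notes, with versions and filters not given in the sources used here. There was 1 narrowPeak list per ChIP library, deposited by the authors, so peaks were called on each alone. The deposited fold ratio is the pileup over the local background, with 1 added to each. The deposited −log10 p and q are those of the peak caller. The deposited score is 10 times the −log10 p, cut to a whole number. The deposited summit offset, another unit, is in bases from the peak start.

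Pileup and background were recovered by finding the whole pileup for which fold and p fit together within 0.001 in −log10 p, possible for 100% of peaks. A region took its values in a replicate from its peak of highest −log10 p. Consecutive regions were compared by an exact binomial test. The steps were tested on simulated data. For the pair test, pileups were drawn around the recovered backgrounds with no q threshold. The simulation therefore cannot show what error in the backgrounds or the threshold does to its calls. Members, lists and limits were chosen with earlier results of these data known. Named were clusters of 4 or more regions, the 10 with the strongest second region, the 3 closest pairs, the pairs nearest 10 kb, and unlike pairs. Clusters of 3 regions were added after their values were seen. Nearest genes and motifs, also planned, were not analysed here. Alternatives varied the q threshold, overlap, distance, zones, background, fold and replicate. Python 3.11.15, numpy 2.4.6, scipy 1.17.1, pandas 2.3.3 and matplotlib 3.10.9 were used.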

Additional observations from a re-analysis of the deposited data

How the results depend on the processing

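At 5 kb between midpoints there were 166 clustered regions in 77 clusters with 6 further peaks inside, and 4 of 89 pairs were unlike. At 20 kb there were 418 in 191 with 85 further peaks, and 16 of 227 pairs were unlike. Over all consecutive pairs, 8.72% were unlike at either distance. Without replicate 1, peaks of replicate 2 alone gave 4370 clustered regions of 20029 (21.8%) in 2012 clusters. Without replicate 2, those of replicate 1 alone gave 5955 of 24764 (24.0%) in 2737 clusters, against 10.0% of the 2711 shared regions. A larger set lies more densely on the genome, and the part of density in these shares was not tested. They therefore do not show whether shared regions cluster less. Among the 144 clustered pairs of shared regions, the test of 1 replicate alone called 16 to 25. With −log10 q of at least 2 the mean difference of clustered from isolated regions was −0.049 in log2 fold and −0.609 in −log10 p. Without the zone at chromosome starts it was −0.14 and −0.110, with 137 further peaks. With fold of at least 3 in both there were 16 further peaks, and 4 of 93 pairs were unlike. The share of all consecutive pairs was not counted at that fold, so the 4 cannot be set against it. The cause was not tested. With the lowest background in place of the local one the pair on chromosome 32 reversed (adjusted p = 3.96e-31, exact binomial test). The other counts stayed within 1.5 times. Of 96 results for the 8 unlike pairs under alternatives, 84 kept their call, 3 lost it and 1 reversed. In 8 the pair was not formed. The 3 losses and the reversal came with the lowest background in place of the local one. The other alternatives left the pileups and local backgrounds of a formed pair as they were. Its adjusted p could then move only with the set of pairs, so most of the 84 kept calls are no test of them. Distances between edges, and leaving out chromosome ends, were chosen after seeing the data. Without the ends 254 regions in 124 clusters remained. No paired analysis was possible because no groups of samples were compared: clustered and isolated regions, and neighbours, were set against each other within each replicate. Pileups near 20 fragments limit what neighbours can show.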
